A study of Mus musculus with 19 samples.

Results

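The aorta of mice that make too little fibrillin-1 was compared with itself at 2 ages, 30 and 60 days after birth, by RNA sequencing of 7 of the 19 samples of the study. The samples were all those labelled as fibrillin-1 hypomorph at these ages, 4 at 30 days and 3 at 60 days. These mice were male, of the C57BL/6 strain and carried the hypomorphic mgR allele on both copies of Fbn1 (Fbn1 mgR/mgR). No treatment is given for them in the labels. The study as a whole set this genotype against wild-type males of the same strain at 16, 30 and 60 days. The wild-type pools of 30 days (4 samples) and 60 days (2 samples) are shown beside the hypomorph below, as is the hypomorph at 16 days (3 samples). The sources used here do not give the stretch of aorta taken, nor whether a sample held 1 animal or several.

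Fibrillin-1 is the main protein of microfibrils, the fine filaments on which elastic fibres are built and which also hold growth factors of the TGF-beta family in the matrix. The mgR allele lowers the output of a structurally normal fibrillin-1, and homozygous mice are used as a model of severe, progressive Marfan syndrome with aneurysm and rupture of the thoracic aorta. The media of the aorta consists mainly of smooth muscle cells between elastic lamellae, and its outer coat, the adventitia, holds fibroblasts, resident macrophages, small vessels, nerves and adjoining fat. Blood monocytes that enter inflamed tissue become macrophages and dendritic cells, which show peptides to CD4+ T cells on class II proteins of the major histocompatibility complex (MHC). B cells that mature in such tissue become plasma cells, which secrete antibody.

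Each gene had 1 FPKM value (a fragment count scaled by transcript length and library size) per age, made by the authors from the pooled libraries of the group. No library had a value of its own, so there is no spread between animals, no test was made, and every difference below is one between 2 pools. Differences are described as log2(FPKM + 1) at 60 days minus that at 30 days, which understates the change of genes with low levels. A fold printed for a single gene is the plain ratio of FPKM. Counts of genes at least 2-fold or 1.5-fold apart, and statements that a gene is past such a limit, rest instead on the log2(FPKM + 1) difference, unless a plain ratio is named. The tables of the 2 ages were normalised separately, and values of 60 days were therefore divided, before any difference or fold, by the median ratio of the 9547 genes with at least 5 FPKM at both ages. That ratio was 1.00044. Single levels are printed as deposited. Summed FPKM over all genes was 502130 at 30 days and 555443 at 60 days, and the sequencing depth behind these values is unknown.

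Of 37668 genes listed, 21997 had a value above 0 at both ages, and 14140 of these had a mean of at least 1 FPKM and were compared. A further 2743 genes were listed at 0 at 1 of the 2 ages only, 805 of them at 30 days and 1938 at 60 days. Among the 2743 were 10 genes with over 1000 FPKM at the other age. At 30 days the genes listed at 0 included the collagen genes Col1a1, Col1a2 and Col3a1, the elastin gene Eln, the smooth muscle actin gene Acta2, Sparc and Bgn, although Col1a1 stood at 1347 FPKM and Acta2 at 4140 FPKM at 60 days. Such a 0 can be a failed estimate, so genes at 0 at either age were left out, and nothing below covers those main matrix and actin genes.

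Among the genes compared, far more were at least 2-fold higher at 60 days than at least 2-fold lower. The genes left out for a 0 at 1 age leaned the other way, with 1938 at 0 at 60 days only and 805 at 30 days only. On the log2(FPKM + 1) scale, 268 genes, or 1.9% of those compared, were at least 2-fold higher and 72 genes, or 0.509%, at least 2-fold lower. By plain ratio the numbers were 427 and 189. At 1.5-fold, 737 genes (5.21%) were higher and 447 (3.16%) were lower. Differences of any size were evenly split, with 49.7% of genes higher, and the median difference over all compared genes was -0.00236. Of the 268 genes, 163 were protein coding, 29 were segments of antibody or T cell receptor genes, and 64 had no entry in the annotation used. Lists of immune cells or immune genes held 47 of the 268, and the adipocyte list held 16. Of the 72 lower genes, 54 were protein coding and 8 were in an immune list.

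Fbn1 itself, the gene that carries the mutation, was listed at 40.9 FPKM at 30 days and 24.6 FPKM at 60 days in the hypomorph, a difference of -0.71. It had been at 41.4 FPKM at 16 days. In wild-type aorta Fbn1 stood at 134 FPKM at 30 days and 52.7 FPKM at 60 days, a difference of -1.25 after the same kind of rescaling, so the hypomorph level lay below the wild-type level at both ages and both levels were lower at 60 days. Fbn1 lies on chromosome 2 of the mm9 build (chr2:125126330-125333729), and the deposited span is shared with 1 other gene. The tissue label was met by smooth muscle genes at both ages. Myh11, the smooth muscle myosin heavy chain, was at 563 FPKM at 30 days and 585 FPKM at 60 days, and Tagln, which encodes the actin-binding protein SM22-alpha, was at 3461 and 3748 FPKM.

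The largest single differences belonged to genes of antibody-secreting cells. Igkc, the constant region of the kappa light chain, was at 2.52 FPKM at 16 days, 7.54 FPKM at 30 days and 344 FPKM at 60 days, or 45.6-fold higher at 60 than at 30 days. Jchain, which joins antibodies of the IgM and IgA classes into multimers, was at 1.00 FPKM at 30 days and 40.3 FPKM at 60 days (40.3-fold). The heavy chain constant region Ighg2b was at 0.780 and 30.4 FPKM (38.9-fold). All 3 were low at 16 and 30 days and stood apart only in the 60-day pool. The 3 genes are at chr6:70676429-70676751, chr5:88949537-88956916 and chr12:114544600-114546144 in mm9.

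Other constant regions differed less. Ighg2c was at 0.588 FPKM at 30 days and 8.66 FPKM at 60 days, and the lambda constant region Iglc2 was at 0.448 and 6.47 FPKM. Ighm, the heavy chain of IgM that unswitched B cells also carry, was already at 13.1 FPKM at 30 days and reached 60.0 FPKM, a smaller, 4.57-fold difference. All 5 constant regions that could be compared of the 6 listed were at least 2-fold higher, against 1.9% of all genes. Their median log2 difference was 2.60. Ighg2b, Ighg2c and Iglc2 reached the required mean of 1 FPKM only through their 60-day levels, so this count and median lean towards higher genes. Ighg1, at 0.0801 and 1.01 FPKM, did not reach it. In wild-type aorta 3 constant regions could be compared, with a median of 1.10: Igkc went from 2.54 to 9.83 FPKM, Ighg2b from 0.393 to 1.89 FPKM and Ighm from 9.56 to 7.32 FPKM.

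The antibody repertoire showed the same direction. Variable segments, the short gene pieces that form the antigen-binding part, were listed for 89 genes. Of these, 37 were above 0 at both ages, and 35 of the 37 were higher at 60 days. A further 31 were listed at 0 at 30 days only, against 0 listed at 0 at 60 days only. Over all genes these numbers were 805 and 1938. Segments with at least 1 FPKM numbered 2 at 30 days and 41 at 60 days. Their summed level was 4.21 FPKM at 16 days, 14.1 FPKM at 30 days and 215 FPKM at 60 days, while wild type had 6.53 FPKM at 30 days and 8.36 FPKM at 60 days. Antibody segments are near-identical copies of each other, and reads may have been split among them, so single segments are uncertain and only sums and counts are given.

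Genes of the B cell itself were scarce. The antigen receptor partners Cd79a and Cd79b were at 0.595 and 0.885 FPKM at 30 days and at 3.70 and 4.95 FPKM at 60 days. Ms4a1, the B cell surface protein CD20, was at 0.280 and 1.32 FPKM and did not reach the minimum of a mean of 1 FPKM. Mzb1, an endoplasmic reticulum protein of antibody-secreting cells, was at 0.296 and 2.53 FPKM. Of the 20 listed B and plasma cell genes above 0 at both ages, 19 were higher at 60 days and 18 at least 2-fold by plain ratio, where 52.7% and 8.88% of all 21997 genes were. The median difference of the 11 genes that passed the minimum was 2.11, but 9 members fell below it, several passed only through the 60-day level, and without the minimum the median was 0.93. Xbp1, a transcription factor of secretory cells in general, was at 88.4 and 94.1 FPKM, and Sdc1, a proteoglycan that also marks plasma cells, was at 33.7 and 28.5 FPKM. In bulk tissue, more cells of a type and more RNA of these genes per cell cannot be told apart, here and for every cell type below.

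T and NK cell genes were also higher, at low absolute levels. Cd3e, a signalling chain of the T cell receptor complex, was at 0.178 FPKM at 16 days, 0.550 FPKM at 30 days and 3.07 FPKM at 60 days, a 5.59-fold difference between 30 and 60 days. Cd3g, another such chain, was at 1.03 and 6.29 FPKM. Trbc2, a constant region of the receptor's beta chain, was at 1.35 and 6.59 FPKM. The 6 receptor and CD3 chain genes listed were each at least 2-fold higher, with differences from 1.12 to 1.84. Of the 22 listed T and NK cell genes, all 22 were above 0 at both ages and higher at 60 days, and 20 were at least 2-fold higher by plain ratio. The 14 that passed the minimum, several of them through the 60-day level alone, had a median difference of 1.28. Without the minimum the median of the list was 0.92.

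Both helper and cytotoxic genes took part. Cd4, the coreceptor of helper cells, was at 0.520 and 1.86 FPKM, and Cd8b1, a chain of the coreceptor of cytotoxic cells, was at 0.398 and 1.67 FPKM. Nkg7, a granule protein of cytotoxic T and NK cells, was at 0.703 and 4.51 FPKM. Ccl5, a chemokine that such cells release, had the largest difference of the list, from 4.25 to 18.6 FPKM (1.90). The tyrosine kinase Lck, which starts receptor signalling, was at 1.29 and 5.45 FPKM. Summed over the list, the level was 16.5 FPKM at 30 days and 69.65 FPKM at 60 days. Wild type had 16.9 and 13.4 FPKM, and Trbc2 went from 3.15 to 1.69 FPKM there. Variable segments of T cell receptors stayed low, with a sum of 5.22 FPKM at 30 days and 11.97 FPKM at 60 days. The thymus lies next to the upper aorta, and genes of immature thymic T cells were summed as a check on adjoining tissue: the sum was 11.5 and 19.7 FPKM, and the recombinase gene Rag1 was at 0.116 and 0.187 FPKM. Of that sum, Cd1d1 alone held 4.59 and 11.1 FPKM, and Cd8b1 is in the T cell list as well. In wild type Rag1 was at 0.614 and 0.0258 FPKM and Dntt, another thymocyte gene, at 0.484 and 0.110 FPKM. Only Ptcra and Arpp21 of these genes were higher there at 60 days. The part of such tissue in the T cell values of either genotype was not tested.

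Genes of antigen presentation by MHC class II were abundant and were higher at 60 days as a group. Cd74, the invariant chain that guards the class II groove until peptide is loaded, was at 93.7 FPKM at 16 days, 258 FPKM at 30 days and 1033 FPKM at 60 days. H2-Aa, the alpha chain of one class II molecule, was at 35.6, 96.5 and 402 FPKM at these ages, and its partner H2-Ab1 was at 113 FPKM at 30 days and 449.6 FPKM at 60 days. H2-Eb1, the beta chain of another, was at 40.1, 119 and 497 FPKM. Each of these genes was about equally far apart between 30 and 60 days, with folds of 4.01 for Cd74, 4.16 for H2-Aa and 4.16 for H2-Eb1.

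The machinery around these chains differed less. Ciita, the coactivator that class II genes depend on, was at 1.35 and 3.95 FPKM (1.08). The peptide loading chains H2-DMa and H2-DMb1 were at 13.2 and 13.5 FPKM at 30 days and at 35.5 and 36.5 FPKM at 60 days. All 7 class II genes listed were at least 2-fold higher, with a median difference of 1.98. Wild-type aorta went the same way between these ages. There H2-Aa was at 33.9 and 95.4 FPKM, Cd74 at 86.2 and 254 FPKM, and the 6 class II genes that could be compared had a median difference of 1.51. The wild-type level at 60 days was thus near the hypomorph level at 30 days. Whether the change differed between genotypes was not tested.

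The promoters of H2-Aa and H2-Eb1 are shown because both genes moved together and class II promoters are known for a shared arrangement of short elements, of which the Y box, bound by the factor NF-Y, is the one nearest to the gene. Each sequence is the 250 bases before the RefSeq start site in GRCm38.p6, read 5′ to 3′ along the gene: H2-Aa at chr17:34287824-34288073 on the minus strand and H2-Eb1 at chr17:34305617-34305866 on the plus strand. Capitals mark the Y box core CTGATTGG, which was searched on both strands.
H2-Aa: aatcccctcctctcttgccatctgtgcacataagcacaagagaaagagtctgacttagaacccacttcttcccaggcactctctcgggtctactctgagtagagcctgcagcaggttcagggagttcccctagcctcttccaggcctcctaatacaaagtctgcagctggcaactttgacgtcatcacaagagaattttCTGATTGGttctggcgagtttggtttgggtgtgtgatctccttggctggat
H2-Eb1: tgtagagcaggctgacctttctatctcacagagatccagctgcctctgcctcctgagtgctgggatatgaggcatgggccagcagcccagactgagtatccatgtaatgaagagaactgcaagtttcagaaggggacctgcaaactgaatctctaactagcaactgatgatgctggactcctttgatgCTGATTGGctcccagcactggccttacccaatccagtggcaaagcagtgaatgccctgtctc
The core begins 51 bases before the start site in H2-Aa and 62 bases before it in H2-Eb1. It was present in 1258 of 32851 promoters of the same length (3.83%), and in 2 of the 5 promoters that the table holds for 4 of the class II genes. The promoter of H2-DMb1 did not hold these letters. Neither core shares bases with a match of the other motifs searched below, and a match is a description of the letters, not evidence of binding.

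**Figure D1:**
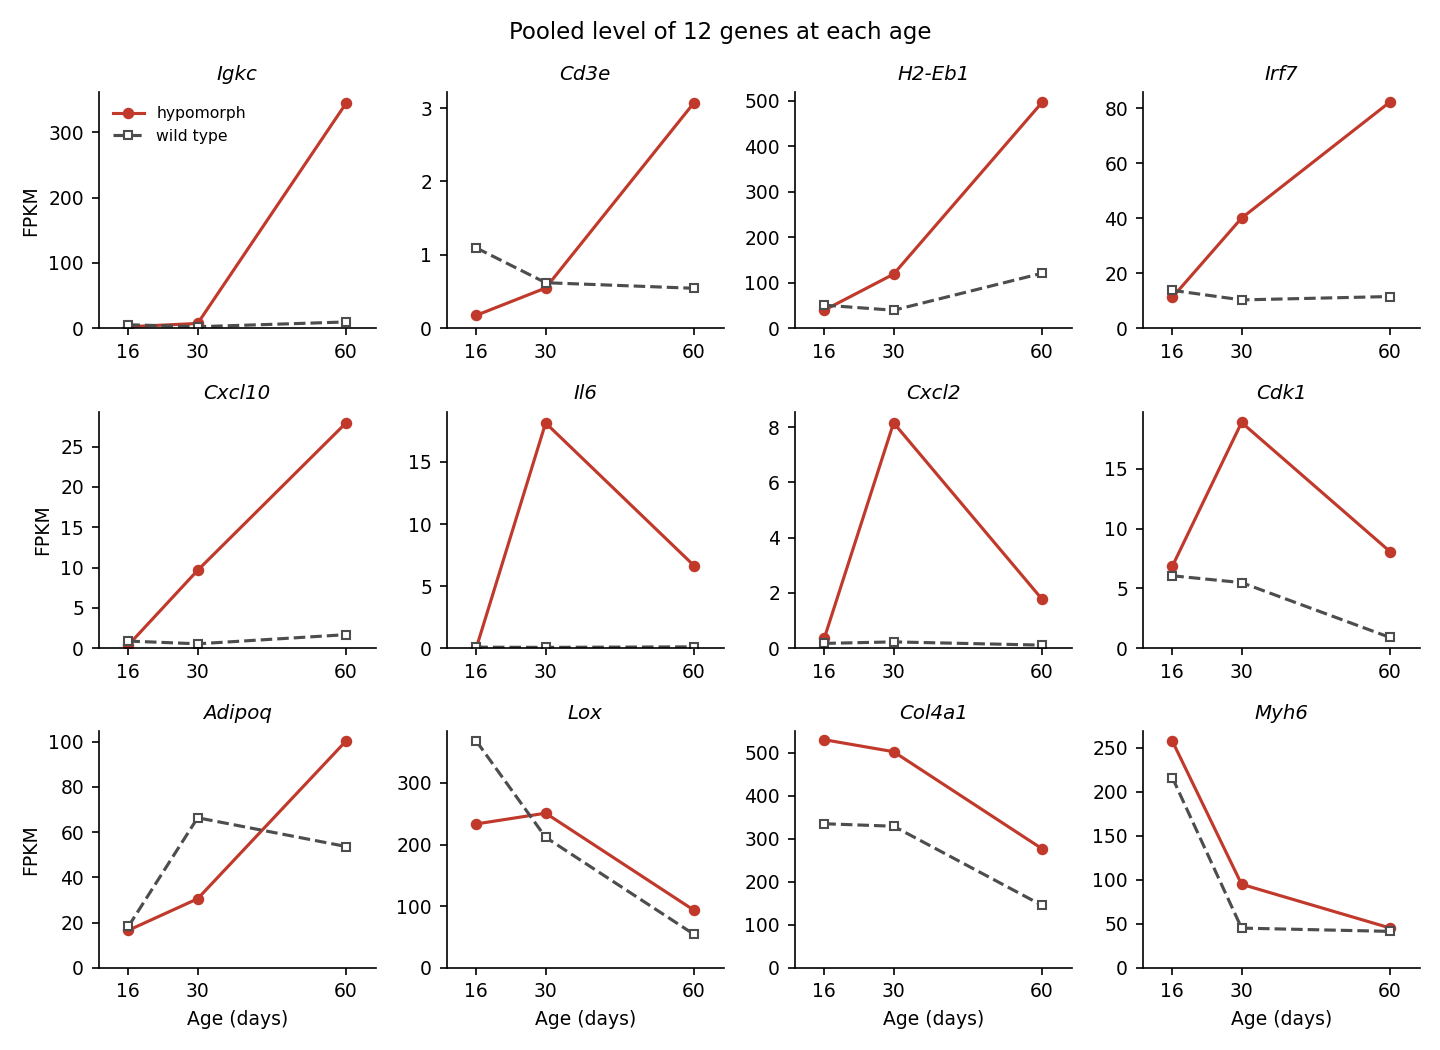
FPKM (y axis, linear) of 12 genes at 16, 30 and 60 days (x axis) in the hypomorph (red circles, solid line) and in wild type (open squares, dashed line), with 1 pooled value per point from separately normalised tables and no error bars. H2-Eb1 reached 497 FPKM in the hypomorph at 60 days beside 121 FPKM in wild type, and Il6, Cxcl2 and Cdk1 were highest at 30 days.

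Monocyte and dendritic cell genes as a list included the class II genes, and 10 of its 17 compared members were at least 2-fold higher, with a median difference of 1.08. Outside class II, differences were unequal among monocyte and dendritic cell genes alike. The smallest in size was that of Zbtb46, a dendritic cell factor, at 4.70 and 4.45 FPKM (-0.06). Ly6c2, a monocyte gene, was at 13.7 and 27.8 FPKM (0.97). Ccr2, the receptor that draws monocytes out of the marrow and into tissue, was at 12.2 and 18.8 FPKM (0.58). Irf8, a transcription factor of dendritic cells and monocytes, was at 10.1 and 23.6 FPKM (1.14), and Cd209a, a lectin of monocyte-derived dendritic cells, was at 2.03 and 5.22 FPKM (1.03). Irf8 differed by 0.20 in wild type.

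Chemokines and cytokines split into one set that was higher at 60 days and another that was lower. Of 34 compared, 6 were at least 2-fold higher and 7 at least 2-fold lower, against 1.9% and 0.509% of all genes, and the median difference was 0.20. The higher set held ligands that attract T cells, B cells and monocytes. Cxcl9, a ligand of the receptor CXCR3 on activated T cells, was at 0.287 FPKM at 16 days, 0.545 FPKM at 30 days and 5.14 FPKM at 60 days (9.44-fold). Cxcl10, another ligand of that receptor, was at 0.382, 9.65 and 27.95 FPKM. The 2 ligands thus differed in timing, since Cxcl10 was already well above its 16-day level at 30 days and Cxcl9 was not.

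Cxcl13, which guides B cells into follicles, was at 0.974 FPKM at 30 days and 4.70 FPKM at 60 days. Ccl8, a monocyte attractant, was at 17.4 and 50.04 FPKM, while wild type had 3.998 and 2.70 FPKM. Hp, the haemoglobin-binding acute phase protein haptoglobin, was at 13.2 FPKM at 16 days, 90.4 FPKM at 30 days and 332 FPKM at 60 days, and is also made by fat cells. Cxcl16, a ligand of a receptor on T cells, was at 20.0 and 42.4 FPKM.

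The lower set held the early inflammatory cytokines and the ligands that attract neutrophils. Il6, the cytokine interleukin-6, was at 0.0314 FPKM at 16 days, 18.1 FPKM at 30 days and 6.64 FPKM at 60 days, a 2.73-fold lower level at 60 than at 30 days. The neutrophil attractant Cxcl1 was at 1.13, 20.2 and 8.53 FPKM, and Cxcl2, a second one, was at 0.360, 8.16 and 1.77 FPKM. Ccl2, the main attractant of CCR2-bearing monocytes, was at 4.97, 46.6 and 20.4 FPKM. These 4 genes were thus highest at 30 days among the 3 ages, and at 60 days were still above their 16-day and wild-type levels, which were 0.102, 2.00, 0.109 and 2.42 FPKM at 60 days in wild type for Il6, Cxcl1, Cxcl2 and Ccl2.

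Il11, a cytokine related to interleukin-6, was at 2.56 FPKM at 30 days and 0.502 FPKM at 60 days. Ptx3, a secreted pattern recognition protein, was at 24.8 and 10.2 FPKM, and Tnfaip6, which binds hyaluronan in inflamed matrix, was at 15.4 and 6.19 FPKM. Il1b, the inflammasome product interleukin-1 beta, was at 13.1 and 11.0 FPKM, a difference of only -0.23. Genes outside the list with the same course were Has1, a hyaluronan synthase, at 15.2 and 3.78 FPKM, and Arg1, the arginase of alternatively activated macrophages, at 5.99 and 1.15 FPKM. Nr4a3, a nuclear receptor induced by acute stimuli, was at 14.5 and 4.27 FPKM. All 3 had lower levels at 16 days, between 0.696 and 3.40 FPKM.

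**Figure D2:**
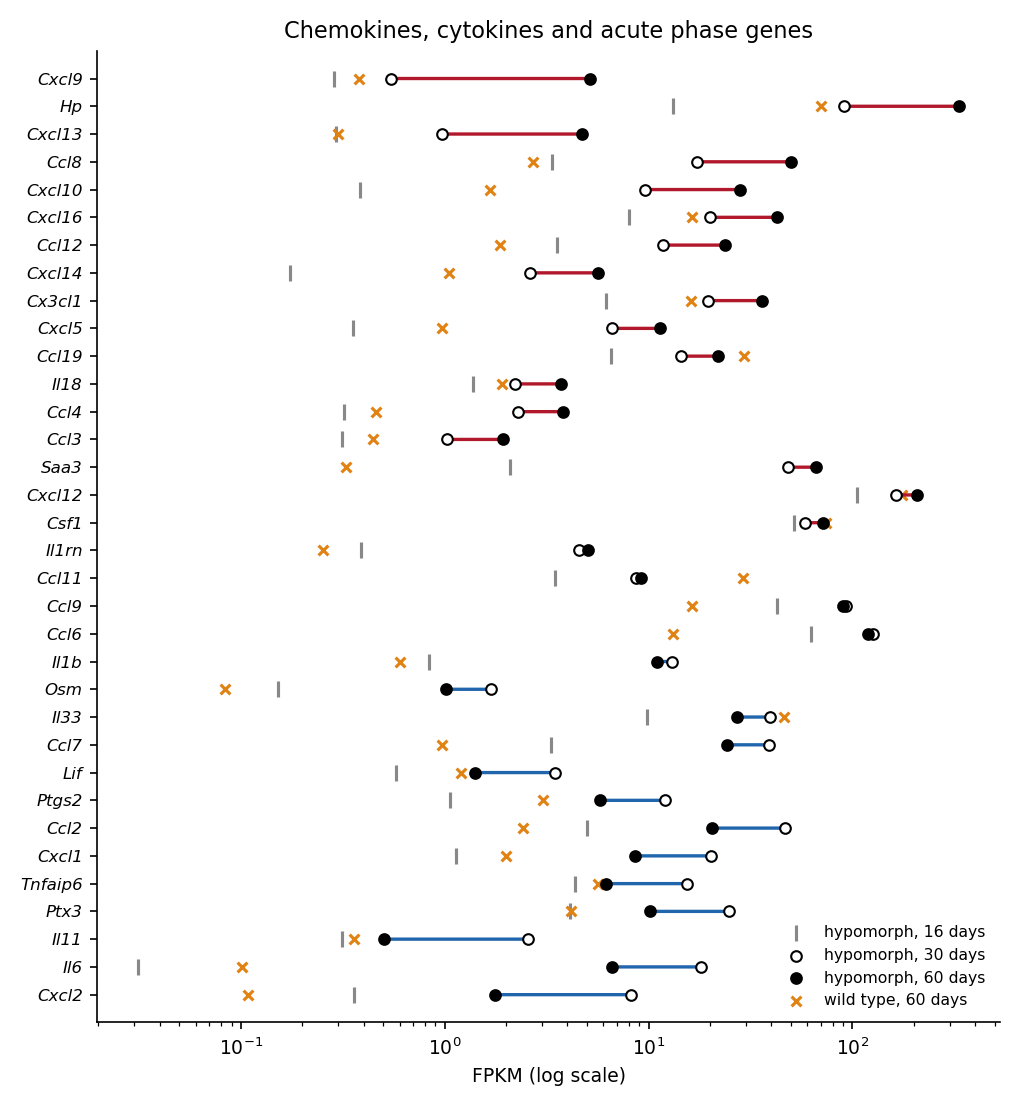
FPKM (x axis, log scale) of the chemokine, cytokine and acute phase genes compared in the hypomorph, 1 gene per row, at 16 days (vertical tick), 30 days (open circle) and 60 days (filled circle), with wild type at 60 days as a cross; lines are red where 60 days is higher and blue where it is lower. Cxcl9 and Cxcl13 run to the right from 30 to 60 days, while Il6 and Cxcl2 run to the left from a 30-day level that lies far above the 16-day tick.

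The promoters of the genes that went in opposite directions are shown for the elements for which these chemokines are known. Each is again the 250 bases before the RefSeq start site in GRCm38.p6, 5′ to 3′ along the gene. For Cxcl10 (chr5:92348890-92349139, minus strand), capitals mark the core of the interferon-stimulated response element, GAAA followed by any 2 bases and another GAAA. For Cxcl1 (chr5:90890995-90891244), Cxcl2 (chr5:90903649-90903898) and Il6 (chr5:30012864-30013113), all on the plus strand, capitals mark the NF-kappaB consensus. Both motifs were searched on both strands.
Cxcl10: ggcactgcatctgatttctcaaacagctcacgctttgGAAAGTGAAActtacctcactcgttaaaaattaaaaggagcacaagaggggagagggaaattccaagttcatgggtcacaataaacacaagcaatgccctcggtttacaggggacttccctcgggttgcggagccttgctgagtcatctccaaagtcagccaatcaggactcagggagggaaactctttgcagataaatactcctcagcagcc
Cxcl1: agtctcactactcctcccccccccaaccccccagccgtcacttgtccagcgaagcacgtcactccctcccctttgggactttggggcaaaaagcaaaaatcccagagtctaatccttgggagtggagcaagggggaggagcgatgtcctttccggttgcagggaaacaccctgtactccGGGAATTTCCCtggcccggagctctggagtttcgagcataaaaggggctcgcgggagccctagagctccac
Cxcl2: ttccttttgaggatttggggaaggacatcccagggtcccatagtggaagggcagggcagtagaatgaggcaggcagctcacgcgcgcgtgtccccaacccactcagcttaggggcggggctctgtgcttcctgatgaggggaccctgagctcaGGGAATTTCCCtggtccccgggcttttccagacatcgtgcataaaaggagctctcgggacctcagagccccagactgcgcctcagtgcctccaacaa
Il6: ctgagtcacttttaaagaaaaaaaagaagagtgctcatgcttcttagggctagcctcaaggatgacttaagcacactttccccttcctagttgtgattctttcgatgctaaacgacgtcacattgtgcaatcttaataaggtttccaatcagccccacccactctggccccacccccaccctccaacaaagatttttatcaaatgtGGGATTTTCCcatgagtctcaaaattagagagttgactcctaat
In Cxcl1 and Cxcl2 the capitals hold 2 overlapping matches, and no capital in these 4 promoters is shared with a match of another motif. The NF-kappaB consensus was in 7 of the 36 promoters of the cytokine list (19.4%), those of Ccl9, Csf1, Cxcl1, Cxcl10, Cxcl2, Il6 and Lif, and in 7.25% of all promoters of this length. It was thus present both in genes that were lower and in Cxcl10, which was higher. The interferon element was in 4 of the 36 promoters (11.1%) and in 2.98% of all promoters. The Cxcl9 promoter did not hold these letters within the 250 bases.

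Interferon-stimulated genes were higher throughout. All 29 compared were higher at 60 days, 18 of them at least 1.5-fold and 4 at least 2-fold, with a median difference of 0.76. Irf7, the factor that amplifies type I interferon production, was at 11.3 FPKM at 16 days, 40.1 FPKM at 30 days and 82.3 FPKM at 60 days. Oasl1, an antiviral protein, was at 3.56 and 8.94 FPKM at 30 and 60 days, and Mx1, an antiviral GTPase, was at 2.37 and 6.06 FPKM. Isg15, a ubiquitin-like protein attached to others during antiviral responses, was at 23.7 and 45.0 FPKM. Irf1, a transcription factor induced by interferon, was at 23.0 and 30.5 FPKM, so that the direction was shared but its size differed between members, from 0.14 to 1.12. In wild type 23 of 25 were higher, against 49.3% of all genes there, with a median of 0.38, and Irf7 was at 10.4 and 11.6 FPKM. The interferon element described above was in 11 of the 26 promoters found for 22 genes of the list (42.3%), among them those of Isg15, Oas1a and Ifit1.

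Macrophage genes were higher by less than the lymphocyte and class II genes. Of 28 compared, 21 were higher, 11 at least 1.5-fold and 2 at least 2-fold, and the median difference was 0.50. Adgre1, which encodes the defining macrophage protein F4/80, was at 21.5 FPKM at 30 days and 27.0 FPKM at 60 days (0.32). Cd68, a lysosomal protein of macrophages, was at 33.2 and 48.3 FPKM (0.53). The 2 genes over 2-fold were Ms4a7, a membrane protein of macrophages, at 16.3 and 36.8 FPKM, and Fcgr1, the high-affinity receptor for IgG, at 9.69 and 22.03 FPKM. The scavenger receptor Cd163 of resident macrophages was at 13.6 and 12.05 FPKM, and Lyve1, another gene of that population, was at 33.5 and 31.2 FPKM. Folr2 and Mrc1, which resident macrophages also carry, were higher, at 36.0 and 44.4 FPKM and at 26.8 and 30.5 FPKM. The differences were thus unequal within the list. In wild type Adgre1 was at 4.62 and 2.26 FPKM, and the list had a median of -0.11.

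Ctss, the protease that trims the invariant chain in antigen-presenting cells, was at 31.3 FPKM at 16 days, 89.8 FPKM at 30 days and 199 FPKM at 60 days, while wild type had 17.5 and 18.2 FPKM at the later ages. Aif1, a calcium-binding protein of activated macrophages, was at 12.1 and 37.3 FPKM. Acp5, the acid phosphatase of osteoclasts and some macrophages, was at 10.8 and 23.2 FPKM and was the only one of 21 lysosomal genes over 2-fold.

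Complement genes were higher in 16 of 19 cases, with a median difference of 0.36. C1qa, a subunit of the recognition complex made by macrophages, was at 198 and 397 FPKM, and C3, the central component, was at 120 and 229 FPKM. C4b was at 73.8 and 155 FPKM. The wild-type median was 0.63, and C3 and C4b differed there by 1.21 and 0.96, where C1qa differed by 0.21. Cfd, the factor D that fat cells secrete, was at 194 and 656 FPKM, the largest difference of the list (1.75).

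Genes of mast cell granules and of neutrophils differed in direction for some members. Among mast cell proteases, the tryptase Tpsb2 was at 2.60 FPKM at 30 days and 11.8 FPKM at 60 days, and the chymases Mcpt4 and Cma1 were at 3.95 and 3.07 FPKM at 30 days and at 14.7 and 8.21 FPKM at 60 days. Of 4 such proteases, 3 were at least 2-fold higher, with a median of 1.42. The mast cell receptor Kit, at 2.57 and 2.95 FPKM, and the histamine-forming enzyme Hdc, at 3.93 and 3.48 FPKM, were near level. Fcer1a and Ms4a2, also mast cell genes, were below the minimum and higher by plain ratio. They were at 0.131 and 0.0712 FPKM at 30 days and at 0.786 and 0.168 FPKM at 60 days. Of 5 neutrophil genes taken from the list, 3 were lower, where 49.7% of all compared genes were higher. S100a8 and S100a9, the subunits of calprotectin, were at 21.7 and 30.2 FPKM at 30 days and at 11.8 and 16.1 FPKM at 60 days, and Retnlg was at 4.31 and 1.38 FPKM. The receptors Csf3r and Cxcr2 were slightly higher, at 5.45 and 1.36 FPKM at 30 days and at 6.21 and 1.39 FPKM at 60 days. Lcn2, or lipocalin-2, which neutrophils share with other cells, was at 10.9 and 41.0 FPKM. Neutrophil granule genes below the minimum went both ways: Mpo, Elane and Camp were higher by plain ratio, and Ngp and Ltf were lower.

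Adipocyte genes formed the largest group outside the immune lists. All 27 compared were higher at 60 days and 16 of them at least 2-fold, with a median difference of 1.28. Adipoq, which encodes the fat cell hormone adiponectin, was at 16.6 FPKM at 16 days, 30.5 FPKM at 30 days and 100.3 FPKM at 60 days. Retn, the secreted protein resistin, was at 4.35 and 20.9 FPKM at 30 and 60 days (4.80-fold). Fabp4, a lipid carrier of fat cells and of capillary endothelium, was at 316 and 802 FPKM, and Plin1, the coat protein of lipid droplets, was at 11.0 and 31.7 FPKM. Ucp1, the uncoupling protein that defines brown fat, was at 18.1 and 33.0 FPKM, and was thus present at both ages.

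Summed over the list, wild-type aorta held more of these transcripts than hypomorph aorta at 30 days and less at 60 days. Adipoq was at 66.3 and 53.6 FPKM there, Fabp4 at 711 and 524 FPKM and Plin1 at 29.8 and 19.5 FPKM. The list summed to 1233 FPKM at 30 days and 3106 FPKM at 60 days in the hypomorph and to 2772 and 2295 FPKM in wild type. Fasn, Plin4, Ucp1 and Elovl3 were still higher in wild type at 60 days. Fasn was at 167 FPKM there beside 148 FPKM in the hypomorph, and Ucp1 at 34.5 beside 33.0 FPKM. Other genes with the course of the fat markers were named after their values were seen. Pck1, an enzyme of glyceroneogenesis, was at 21.0 and 65.6 FPKM, and the carboxylesterase Ces1d was at 15.2 and 47.8 FPKM. Cfd and Hp above are also made by fat cells. The part of adjoining fat in any of these values was not tested.

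Heart muscle genes were lower at 60 days, and skeletal muscle genes were mixed. Of 24 cardiomyocyte genes compared, 23 were lower at 60 days, 15 of them at least 1.5-fold and 5 at least 2-fold, and the median difference was -0.72. Myh6, the cardiac myosin heavy chain, was at 258 FPKM at 16 days, 94.9 FPKM at 30 days and 45.2 FPKM at 60 days. Myl3, a ventricular myosin light chain, was at 68.0 and 27.1 FPKM, and Nppa, the atrial natriuretic peptide, was at 136 and 108 FPKM. The list summed to 1411 FPKM at 30 days and 875 FPKM at 60 days, and to 617 and 557 FPKM in wild type. The skeletal muscle list had only 4 of 20 members above the minimum. Casq1, the calcium store protein of fast fibres, was at 25.4 and 8.53 FPKM and Acta1, skeletal muscle actin, at 16.9 and 2.91 FPKM, although the deposited span of Acta1 holds 158 other genes. Of the 18 skeletal members above 0 at both ages, 9 were higher and 9 lower. Those higher were all below the minimum, such as Myh1, a fast myosin heavy chain, at 0.0719 and 0.462 FPKM. The median of -1.22 over the 4 became -0.06 without the minimum. These lists mark tissue around the aortic root or along the vessel, and their part in other results was not tested.

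Most of the cartilage and bone genes compared were lower, with a median difference of -0.42. That median was -0.26 without the minimum and -0.15 with a mean of at least 5 FPKM. Col11a1, Col9a1 and Col11a2 differed by -1.20, -1.14 and -1.03. Col2a1, the collagen of cartilage, was at 6.63 FPKM at 30 days and 0.996 FPKM at 60 days, the second largest lower difference among genes the naming rule covers (-1.93), while it was at 1.71 and 1.49 FPKM in wild type. Comp, a matrix protein of cartilage and tendon, was higher, at 42.2 and 131 FPKM, with 37.9 and 145 FPKM in wild type. Ibsp, Runx2 and Sost of this list were also higher, by 1.15, 0.21 and 0.18. Among nerve genes, Mbp, a myelin protein, was at 3.41 and 11.2 FPKM, and Pmp22, which other cells express too, was at 155 and 138 FPKM. The median of the 12 nerve genes compared was 0.30. Haemoglobin and other erythroid genes had a median of -0.07.

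**Figure D3:**
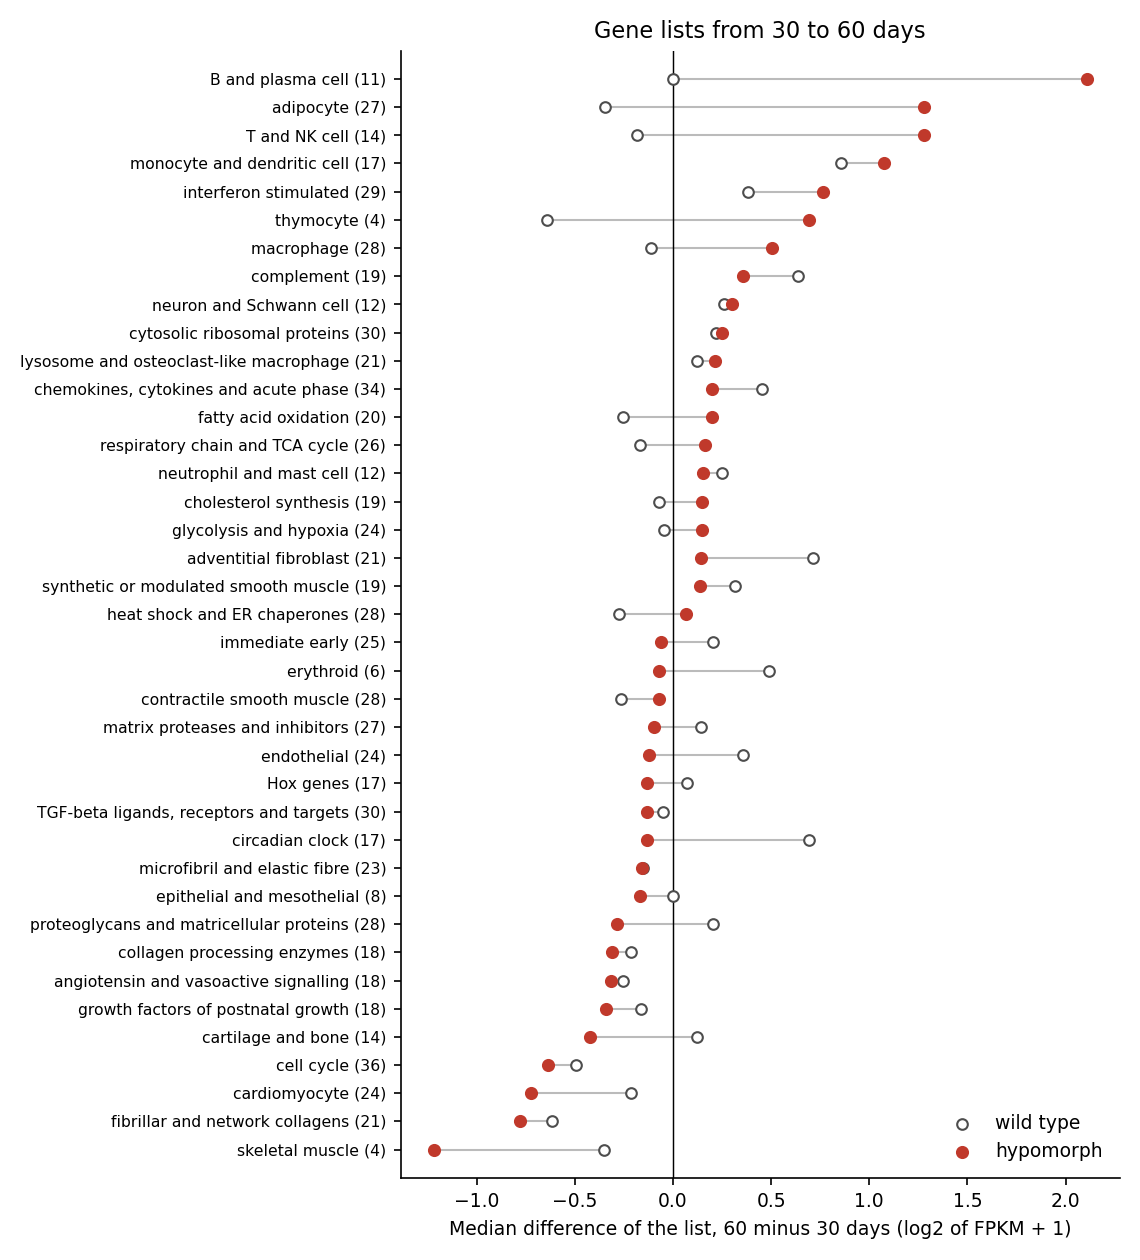
Median log2(FPKM + 1) difference, 60 minus 30 days (x axis), of each gene list (rows, with the number of genes compared in the hypomorph) in the hypomorph (filled red) and in wild type (open). B and plasma cell (2.11), T and NK cell (1.28) and adipocyte (1.28) lists lie farthest to the right in the hypomorph, and the skeletal muscle (-1.22, 4 genes), collagen (-0.78) and cardiomyocyte (-0.72) lists farthest to the left. This order depends on the minimum of a mean of 1 FPKM. Without it the medians were 0.93 for B and plasma cell, 0.92 for T and NK cell and 1.21 for adipocyte genes. They were then 1.00 for monocyte and dendritic cell genes and -0.06 for skeletal muscle genes.

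Collagen genes were lower at 60 days almost without exception in the hypomorph, and most were lower in wild type too. Of the 21 collagen genes compared, 20 were lower, 14 at least 1.5-fold and 3 at least 2-fold, with a median of -0.78. In wild type 11 of 20 were at least 1.5-fold lower, against 3.63% of all genes, and the median was -0.62. Col8a1, Col8a2, Col12a1 and Col14a1 were higher there, by 0.44, 1.05, 0.53 and 0.24. Col4a5, a chain of basement membrane collagen, was at 201 FPKM at 30 days and 67.0 FPKM at 60 days, with 207 and 62.0 FPKM in wild type. Col4a1, the main chain of that type, was at 503 and 277 FPKM. Col5a1, which starts the assembly of thick fibrils, was at 236 and 120 FPKM, and Col6a1 of the microfibrillar collagen VI was at 250 and 137 FPKM. All 6 chains of collagen IV were lower, with a median of -0.83. Col8a2, a short chain network collagen, was the exception in the hypomorph at 4.22 and 4.39 FPKM. Col1a1, Col1a2 and Col3a1 are not covered, since they were listed at 0 at 30 days.

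Enzymes that cross-link and shape the matrix followed the collagens. Lox, the lysyl oxidase that cross-links elastin and collagen, was at 233 FPKM at 16 days, 251 FPKM at 30 days and 93.3 FPKM at 60 days, a 2.69-fold lower level, with 212 and 54.2 FPKM in wild type. Loxl2, a relative, was at 95.9 and 44.6 FPKM. The collagen processing enzymes had a median of -0.31, and 4 of 18 were at least 1.5-fold lower. Among microfibril and elastic fibre genes, 17 of 23 were lower with a median of -0.16, and Lox and Loxl2 were the only ones past 2-fold on the log2(FPKM + 1) scale. After the correction for transcript length described below, this median was -0.02. Mfap4, a microfibril protein, was at 334 and 202 FPKM, and wild type stayed at 1304 and 1216 FPKM, so that its hypomorph level was far below that of wild type at both ages. The deposited span of Mfap4 is shared with 1 other gene. Efemp1, or fibulin-3, was higher, at 31.5 and 63.5 FPKM (a log2 difference of 0.99), by about the same as in wild type (1.05).

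Matricellular genes that are known for induction in injured or remodelling vessels went in both directions. Thbs1, or thrombospondin-1, was at 56.4 FPKM at 16 days, 148 FPKM at 30 days and 73.6 FPKM at 60 days, which places its highest level at 30 days, as for Il6. Cthrc1, a secreted protein of activated fibroblasts and smooth muscle, was at 68.7 and 29.8 FPKM, and Ccn4 was at 20.1 and 9.15 FPKM. Spp1, or osteopontin, was higher, at 2.52 FPKM at 16 days, 80.9 FPKM at 30 days and 145 FPKM at 60 days. Over the list 4 of 28 were at least 2-fold lower and 1 higher, with a median of -0.28. Matrix proteases and their inhibitors had a median of -0.09. Mmp13, a collagenase, was at 0.627 and 6.53 FPKM (10.4-fold) and Mmp3, or stromelysin-1, was at 39.3 and 79.0 FPKM, while the gelatinase genes Mmp2 and Mmp9 were at 147 and 2.24 FPKM at 30 days and at 112 and 2.55 FPKM at 60 days. The inhibitor Timp1 was at 216 and 243 FPKM, levels far above the 31.9 FPKM of 16 days.

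The contractile genes of smooth muscle differed little as a list, with a median difference of -0.07 over 28 compared. None was 2-fold apart, which is near the shares of all genes, 1.9% higher and 0.509% lower. At least 1.5-fold lower were 3 of the 28, against 3.16% of all genes. Cnn1, or calponin, was at 308 and 320 FPKM. The 3 that were at least 1.5-fold lower were Vcl, the adhesion protein vinculin, at 93.0 and 55.9 FPKM, and Pln and Prkg1, which act in calcium handling and relaxation. Pln, at 40.5 and 24.8 FPKM, is also in the cardiomyocyte list. Myocd, the coactivator of the contractile programme, was at 51.0 and 33.9 FPKM. Among genes of modulated smooth muscle, 4 of 19 were at least 1.5-fold higher, with a median of 0.14. Igfbp2, a binding protein of insulin-like growth factors, was at 147 FPKM at 16 days, 502 FPKM at 30 days and 934 FPKM at 60 days, beside 30.7 and 27.6 FPKM in wild type at the later ages. Mgp, the calcification inhibitor matrix Gla protein, was at 5958 and 10462 FPKM.

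Signalling genes of the TGF-beta pathway were close to level by their median, which was -0.13 over 30 compared. None was 2-fold apart, and 1 was at least 1.5-fold lower. That gene was Tgfb2, a ligand, at 43.3 and 28.1 FPKM. Such counts do not set the list apart from other genes. The 2-fold limits were passed by 1.9% of the 14140 compared genes upwards and by 0.509% downwards. The lower 1.5-fold limit was passed by 3.16%. The ligand Tgfb1 was at 36.3 and 46.4 FPKM, and the target Ccn2, or connective tissue growth factor, was at 360 FPKM at 16 days, 765 FPKM at 30 days and 1025 FPKM at 60 days. Its level at 30 days was thus already well above that at 16 days. Angiotensin and vasoactive genes had a median of -0.32 over 18 compared, and the receptor gene Agtr1a was at 2.25 and 3.34 FPKM.

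Some endothelial genes were lower at 60 days in the hypomorph and higher in wild type. Fibroblast genes were mostly higher in wild type and, as a list, near level in the hypomorph. Pecam1, the junction protein CD31 of endothelium, was at 128 FPKM at 30 days and 78.1 FPKM at 60 days in the hypomorph, and at 216 and 266 FPKM in wild type. Nos3, the endothelial nitric oxide synthase, was at 12.9 and 7.84 FPKM, and at 19.1 and 29.8 FPKM in wild type. The endothelial list had a median of -0.12 in the hypomorph and 0.36 in wild type. The 2 endothelial members at least 2-fold higher, Fabp4 and the cell cycle regulator Rgcc, are not endothelial alone. The adventitial fibroblast list had a median of 0.14 in the hypomorph and 0.71 in wild type. The hypomorph median was 0.05 when the pools were scaled to equal summed FPKM. Among its members, 16 of 22 were at least 1.5-fold higher in wild type, against 4.77% of all genes. In the hypomorph 1 of 21 was, against 5.21% of all genes. Pdgfra, Dpt, Cd248, Serpinf1, Mfap5, Pcolce2 and C7 were lower in the hypomorph, and Mfap5 was lower in wild type too. Gsn, the actin-severing protein gelsolin, was at 791 and 873 FPKM in the hypomorph and at 1809 and 3738 FPKM in wild type. Pi16, a gene of adventitial fibroblasts, was at 210 and 262 FPKM, and at 568 and 929 FPKM in wild type. The difference between genotypes was not tested for these genes.

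Genes of cell division were lower at 60 days. Of 36 compared, 34 were lower, 21 at least 1.5-fold and 2 at least 2-fold, with a median of -0.64, and wild type had a median of -0.50 over 26 genes. Cdk1, the kinase that drives mitosis, was at 6.84 FPKM at 16 days, 18.9 FPKM at 30 days and 8.07 FPKM at 60 days. Its wild-type levels were 5.48 and 0.890 FPKM at the later ages. Top2a, the topoisomerase of dividing cells, was at 15.1 and 8.66 FPKM, and Prc1, which bundles the mitotic spindle, was at 13.1 and 5.05 FPKM. Igf2, the fetal growth factor, was at 11.2 and 4.24 FPKM in the hypomorph and at 16.4 and 20.0 FPKM in wild type.

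Metabolic and housekeeping groups moved little. Ribosomal protein genes were higher in 29 of 30 cases but by a median of 0.25, and the 30 of 30 in wild type had a median of 0.22. Glycolysis, respiratory chain, fatty acid oxidation and cholesterol synthesis lists had medians of 0.15, 0.16, 0.20 and 0.15. The 1 member over 2-fold was Cox8b, a respiratory subunit of heart and brown fat, at 65.8 and 136 FPKM. Heat shock and chaperone genes had a median of 0.07, which became -0.02 when the pools were scaled to equal summed FPKM. Immediate early genes, a sign of handling before freezing, had a median of -0.06, and Nr4a3 was the only one of 25 at least 2-fold apart. Hox genes, which record the position along the body axis, had a median of -0.13, epithelial and mesothelial genes one of -0.17. Circadian clock genes, which follow the time of day at dissection, had a median of -0.13, and none of 17 was 1.5-fold apart on the log2(FPKM + 1) scale. Of all genes, 5.21% were higher and 3.16% lower by that much. Among the clock genes Arntl, the core gene also called Bmal1, came closest to that limit, at 1.57 and 2.85 FPKM (0.58, or 1.82-fold by plain ratio). In wild type 9 of 17 were at least 1.5-fold higher and 3 lower. Dbp, an output gene of the clock, was at 162 FPKM in both hypomorph pools and at 97.5 and 280 FPKM in wild type. The wild-type pools of the 2 ages thus stood apart in clock genes, while the hypomorph count was near the share of all genes.

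Set beside the hypomorph, wild-type aorta had fewer genes at least 2-fold higher over the same interval, 132 of 13729 (0.961%), and a like number lower, 75 (0.546%). Its 60-day values were divided by their own median ratio of 0.948 over 9098 genes. The split between directions in wild type depended on that scaling: it was 96 higher and 105 lower without rescaling, and 80 and 126 when the pools were scaled to equal summed FPKM. The hypomorph split was 228 and 96 under the latter. Over the 13382 genes compared in both genotypes, 21 genes were at least 2-fold higher in both, which is 14.9% of the 141 in the hypomorph and 16.9% of the 124 in wild type. For lower genes, 15 were shared, 25.4% of 59 and 22.1% of 68. Across these genes the 2 sets of differences had a Spearman correlation of 0.50 and a Pearson correlation of 0.45, given as a description, since genes are not independent and the 2 genotypes share their age tables and gene lengths.

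**Figure D4:**
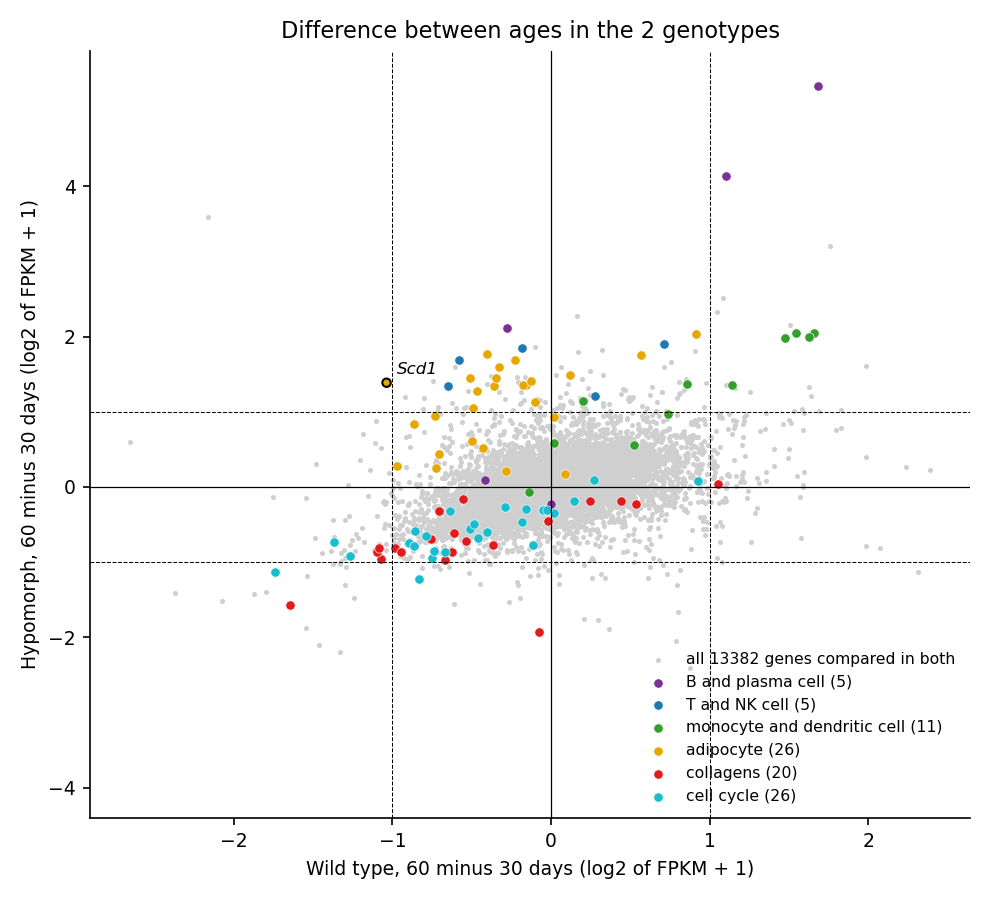
Log2(FPKM + 1) difference, 60 minus 30 days, in wild type (x axis) and in the hypomorph (y axis), 1 point per gene compared in both, with list members coloured and dashed lines at 2-fold. Most adipocyte and T cell genes lie above 1 on the y axis and near or left of 0 on the x axis, class II genes lie to the upper right and most collagen and cell cycle genes to the lower left; Scd1 is labelled at the upper left.

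Among genes shared by both genotypes and lower at 60 days, C1qtnf6, a secreted relative of complement C1q, was at 78.6 and 26.9 FPKM in the hypomorph and at 117 and 25.5 FPKM in wild type. Pi15, a secreted protease inhibitor, was at 87.2 and 32.1 FPKM, and at 115 and 20.3 FPKM in wild type. Adamts12, a metalloprotease of the matrix, was at 9.27 and 1.80 FPKM, and at 6.55 and 1.51 FPKM in wild type. Nrep was at 25.8 and 9.19 FPKM. Clec3a, a lectin of cartilage, was lower in the hypomorph at 7.87 and 1.81 FPKM and not in wild type, at 12.1 and 20.8 FPKM. On the higher side, genes outside the lists were Scg2, a granin of neuroendocrine cells, at 0.225 and 5.68 FPKM, Tmem45b at 3.07 and 18.7 FPKM, and Cyp2f2, a cytochrome P450 of airway cells, at 0.773 and 6.92 FPKM. Scg2 had been at 0.152 FPKM at 16 days and was at 0.334 FPKM in wild type at 60 days.

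Transcript length moved with the differences. Over 13542 genes with a length, the difference between 60 and 30 days had a Spearman correlation of -0.43 with transcript length in the hypomorph and of -0.28 in wild type. The 3390 shortest genes had a median difference of 0.16 and the 3384 longest one of -0.18. Subtracting the median of genes of like length left 178 genes higher by 2-fold or more and 69 lower. The median was then -0.60 for collagens, which are long, 1.12 for adipocyte genes and 0.10 for ribosomal protein genes, which are short. Several small medians moved towards 0 or past it, to -0.02 for elastic fibre and contractile genes, -0.06 for the TGF-beta pathway, -0.03 for endothelial genes, -0.12 for growth factors and 0.01 for matrix proteases. The part of RNA quality or library preparation in this trend was not tested. Around the 2-fold limit itself, which is a log2(FPKM + 1) difference of 1, Ifitm1 (4.58 and 10.2 FPKM), an antiviral membrane protein, lay just above it and C1qa just below it. Thbs1 lay just past the limit for lower genes, and Dnmt3a (35.9 and 17.6 FPKM), a DNA methyltransferase, just short of it.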

How the data were processed

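RNA of frozen aorta was sequenced as polyadenylated, strand-marking libraries read from both ends, per the labels' protocols. Per the submitters' processing notes, the tools were Cufflinks 1.3.0, TopHat2 2.0.8, SAMtools 0.1.7 and Bowtie2 2.1.0 on mm9, and their settings are not stated. Per the file headers, the authors deposited 1 FPKM value per gene and group. Samples were grouped by genotype and age from their titles and characteristics. The libraries behind a pool are not named, so p-values, spreads and the planned test per library were not computed. Depth is unknown.

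Tables were joined on the gene identifier, of which 32638 of 37668 matched a symbol. Each table lists wild type 3 times; where listings disagreed because 1 was 0 (17 genes in the 30-day table, 11 in the 60-day table), the larger was kept. Rows of 1 group in each table fit no sample in the labels and stayed out. Values of 60 days were divided by the median ratio of genes with at least 5 FPKM at both ages, genes at 0 at either age were left out, and a mean of at least 1 FPKM was required. A pseudocount of 1 FPKM was added on the log2 scale.

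Of 901 genes in 39 lists, 889 matched. The members and lists were chosen with earlier results of these data known. Genes named were Fbn1, the 15 highest and 15 lowest differences with at least 5 FPKM at the higher age, and up to 4 members of each list, the defining markers and the largest differences. Predicted genes, pseudogenes and variable segments were skipped. A few genes within this rule are not reported here. Further genes, including members of a list beyond 4, were chosen after their values were seen. Promoters came from RefSeq (GRCm38.p6), other coordinates from the deposited mm9 spans, and transcript lengths and gene types from GENCODE M21. Alternatives were another pseudocount, another filter, other scalings and, added after seeing the data, a 1.5-fold limit and a correction for length. The calculations, made in Python 3.11.15 with numpy 2.4.6, pandas 2.3.3 and scipy 1.17.1, were tested on simulated data, and plots used matplotlib 3.10.9.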

Additional observations from a re-analysis of the deposited data

Results flagged for a closer look

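Scd1, the desaturase that fat cells use to make monounsaturated lipid, moved in opposite directions in the 2 genotypes between 30 and 60 days, by at least 2-fold in each. It was at 95.7 and 252 FPKM in the hypomorph, a log2 difference of 1.39, and at 303 and 139.6 FPKM in wild type, a difference of -1.04. Of the 39 genes at least 2-fold apart in both genotypes, 3 went in opposite directions. The difference between genotypes was not tested, because each group had 1 pooled value.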

How the results depend on the processing

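No paired analysis was possible because the files hold 1 pooled value per group, and leaving out a replicate and the limma test per library were not run for the same reason. The number of genes at least 2-fold higher or lower in the hypomorph (268 and 72) was 427 and 189 as a plain ratio, 130 and 44 with a mean of at least 5 FPKM, and 737 and 447 at 1.5-fold. It was 167 lower with a pseudocount of 0.1 FPKM and 178 higher after the correction for length. In wild type (132 and 75) it was 287 and 181 as a plain ratio, 260 and 165 with a pseudocount of 0.1 FPKM, 80 and 126 at equal summed FPKM, and 40 lower with a mean of at least 5 FPKM. No single gene or list median that was called changed direction. Of the values of single named genes, 181 stayed close and 20 moved, 10 with a pseudocount of 0.1 FPKM and 10 as a plain ratio. Of the list medians, 303 stayed close and 9 moved, in the B and plasma cell, T and NK cell, neutrophil and mast cell, and skeletal muscle lists. The B and plasma cell median ranged from 0.93 without a minimum to 3.12 with a mean of at least 5 FPKM. Equal summed FPKM lowered the median of all genes to -0.08. Low levels are the least certain, since depth is unknown and no error can be given.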
